A study of Mus musculus with 12 samples.

Results

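The genes described here encode the secreted and membrane-bound guidance cues and their receptors: semaphorins with plexins and neuropilins, ephrins with Eph receptors, Slits with Robo receptors, and netrins with Unc5 receptors. They were chosen by symbol, and 70 symbols were found in 69 of the 26271 loci of the authors' deposited table. The symbol rule used measured values only where a symbol stood in several rows. The row with the highest summed FPKM (a read count scaled to transcript length and library size) was then taken. This decided 1 symbol, Efna3. The list of families as such was assembled with earlier results of these data known. RNA came from C2C12 cells, an established line of mouse myoblasts that proliferate in serum and can form muscle fibres. Their medium, DMEM, held glucose at 25 mM (high glucose) or at 5 mM (low glucose), or galactose at 10 mM, and they stayed in it for 24 h. Pyruvate (1 mM), serum (10%) and antibiotic (1%) were common to the 3 media, and each of them had 4 polyA libraries (12 in total). The table holds 1 pooled FPKM per medium and the tool's test of each pair of media. With no value per library, neither an SD nor an n stands beside a value, and read depth is unknown. Separate cultures are not named in the labels, so the authors' q-values may cover technical spread alone. Called here means that q, the p-value adjusted over all genes and comparisons, was below 0.05. The floor of q in the table is 0.000239, which 9204 of 44006 tests share; called changes printed without a q stood at this floor or between it and the threshold.

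Guidance cues were first known for steering axons and are also used by muscle precursors, vessels and epithelia. Semaphorins bind plexins, alone or with neuropilins as co-receptors, and activated plexins act on small GTPases and loosen the actin skeleton and integrin adhesion. Ephrins are themselves bound to the membrane, so that ephrin and Eph receptor signal between touching cells, in both directions. Slits bind Robo receptors, and netrins bind DCC, neogenin and Unc5 receptors. In muscle, such cues are known to act in the migration of precursor cells and in the growth of nerve endings toward fibres.

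More guidance genes were called lower than higher on leaving high glucose. From high to low glucose, 28 of 52 tested symbols were called lower (53.8%) and 9 higher (17.3%) by the authors' deposited table. Among all 14699 loci tested in that comparison, 18.2% were called lower and 18.3% higher. From high glucose to galactose, 31 of 53 tested symbols were called lower (58.5%) and 11 higher (20.8%), beside 24.8% and 26.5% of all tested loci. From low glucose to galactose, 19 of 53 were called lower (35.8%) and 13 higher (24.5%), beside 16% and 17.4% of all tested loci. The share called lower was above that of all loci in each comparison. The share called higher was near that of all loci from high to low glucose. It was below that of all loci from high glucose to galactose and above it between low glucose and galactose. The symbols include Unc50, which is no guidance receptor, and the joint row of Ephb2 and Epha8 as 2. Without Unc50 and with that row counted once, 27 were lower and 9 higher of 50 tested from high to low glucose, 30 and 10 of 51 from high glucose to galactose, and 19 and 12 of 51 between low glucose and galactose. Each pair of comparisons shares the libraries of 1 medium, so the 3 counts are not independent.

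Fold changes leaned the same way. The median log2 fold change of the tested guidance genes was -0.20 from high to low glucose, beside 0.0071 for all tested loci. It was -0.31 from high glucose to galactose, beside 0.0058, and -0.12 between low glucose and galactose, beside 0.010. A fall of 2-fold or more to galactose was called for 12 guidance genes against high glucose, where 5.16% of all tested loci fell so far, and for 7 against low glucose, beside 1.17% of all tested loci. Between the glucose media 2 guidance genes fell so far, beside 2.45% of all tested loci. Rises of 2-fold or more to galactose numbered 2 against high glucose (all tested loci, 3.27%) and 1 against low glucose (all tested loci, 1.69%), and there were 0 between the glucose media (all tested loci, 0.864%), where 9 smaller rises were called by the authors' Cuffdiff test. These counts describe a list assembled with results of these data known, and no set test was run.

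**Figure D1:**
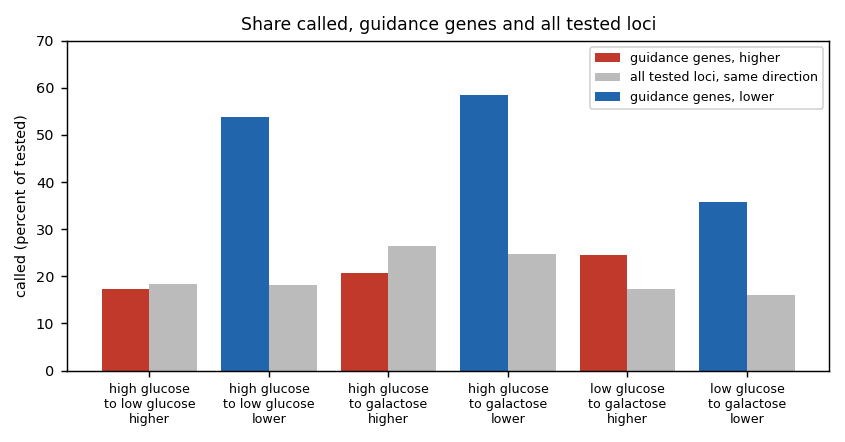
Bars give the percent of tested guidance genes called higher (red) or lower (blue) in each comparison, beside the percent of all tested loci called in that direction (grey). The blue bars reach 53.8%, 58.5% and 35.8%, against 18.2%, 24.8% and 16% for all loci.

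C2C12 cells listed 50 of the 70 symbols at 1 FPKM or more in at least 1 medium, and 26 at 10 FPKM or more. Some families, though not all, were carried mostly by 1 gene. Epha2 made up 60.4% of the summed FPKM of Eph receptors under high glucose, 70.5% under low glucose and 71.5% under galactose, over the values of the authors' deposited table. Among plexins, Plxnb2 gave 56.5%, 55.4% and 51.7% of the sum in that order. Unc5b gave 98.5%, 99.0% and 99.7% of the Unc5 receptors. The semaphorins had no such dominant gene: Sema7a, the leading one in both glucose media, gave 27.5%, 30.4% and 15.1% in that order. The sum over semaphorins itself was 162, 122 and 107 FPKM by the authors' deposited table. This sum, on which the shares of Sema7a rest, includes the row that Sema3g shares with Tnnc1, at 16.8, 10.9 and 15.5 FPKM.

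**Figure D2:**
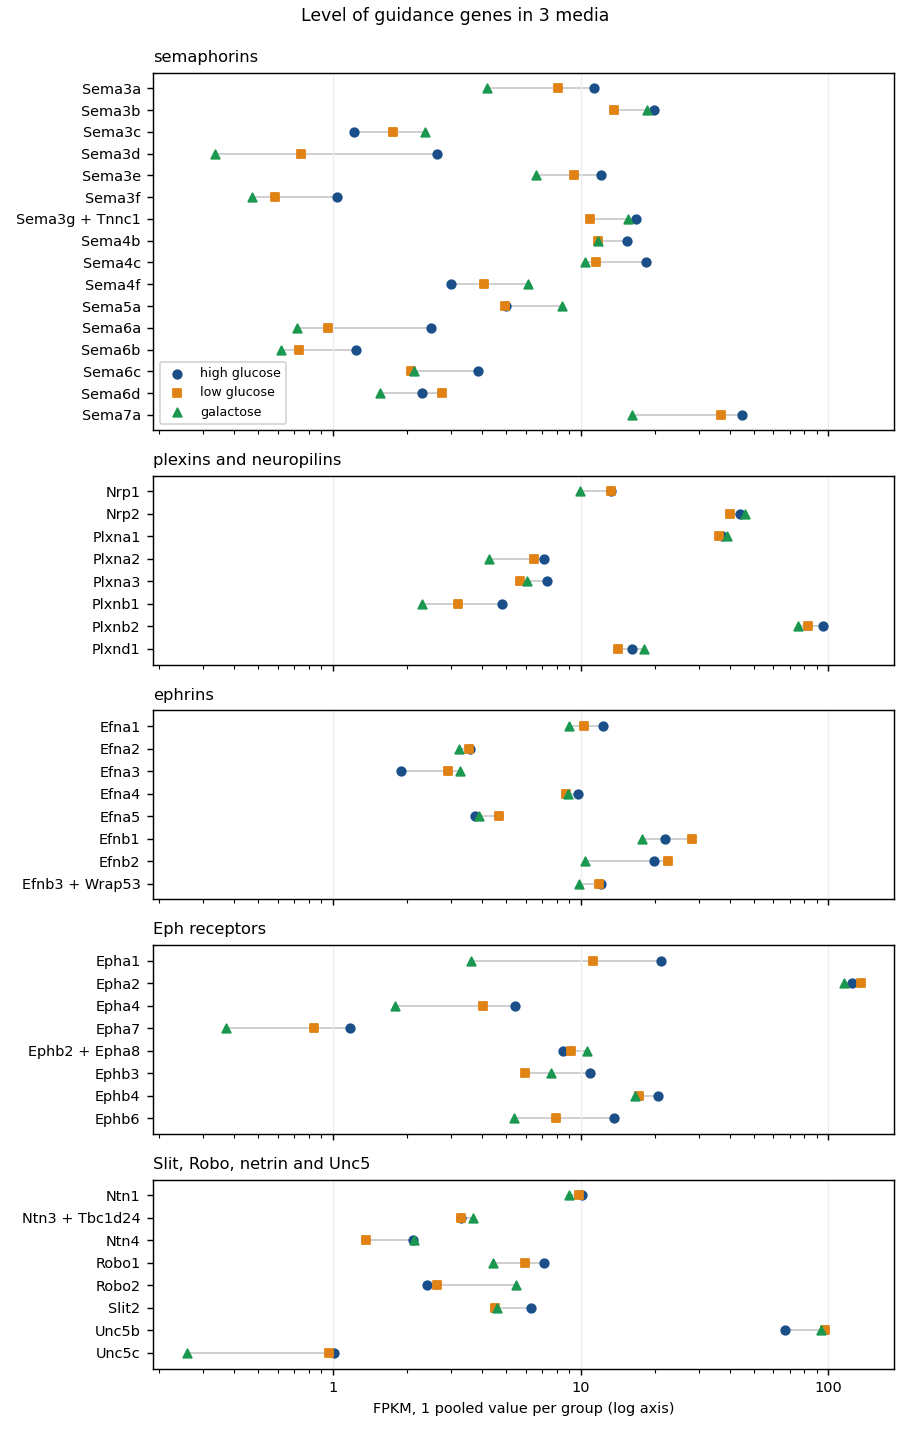
Each row is 1 of 48 loci of guidance genes with at least 1 FPKM in a medium. Points give the authors' pooled FPKM in high glucose (blue circle), low glucose (orange square) and galactose (green triangle) on a log axis, with no error available. Sema3d, Unc5c and Epha7 show wide spans to the left in galactose, at 0.335, 0.258 and 0.372 FPKM, and Plxna1 and Nrp2 narrow ones.

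The DNA just before the start site is shown for 6 genes that moved 2-fold or more from high glucose to galactose. Sema3d, Epha7, Ephb6 and Sema6b had the largest falls of their families among the eligible genes. Such genes have a row of their own and a RefSeq start within 100 bases of the row's end. No other RefSeq protein-coding gene overlaps them (Gm symbols were not considered). Sema4f and Robo2 are the 2 rises. Sema6a, which fell further than Sema6b, had no entry among the promoter windows used and is not shown. The 250 bases before the RefSeq start (GRCm38.p6) are printed 5′ to 3′ on the gene's strand. Capitals mark CAGCTG and CAGGTG (or its reverse complement CACCTG), letters that factors of the MyoD family are known to bind. The windows lie at chr5:12382916-12383165 (plus strand), chr4:28812881-28813130 (plus), chr6:41605261-41605510 (plus), chr17:56140344-56140593 (minus), chr6:82939770-82940019 (minus) and chr16:74411826-74412075 (minus).
Sema3d: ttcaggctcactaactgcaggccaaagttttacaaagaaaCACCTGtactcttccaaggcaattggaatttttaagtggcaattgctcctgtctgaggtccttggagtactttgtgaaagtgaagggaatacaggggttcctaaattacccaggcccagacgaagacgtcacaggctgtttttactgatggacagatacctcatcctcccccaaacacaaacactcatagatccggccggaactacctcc
Epha7: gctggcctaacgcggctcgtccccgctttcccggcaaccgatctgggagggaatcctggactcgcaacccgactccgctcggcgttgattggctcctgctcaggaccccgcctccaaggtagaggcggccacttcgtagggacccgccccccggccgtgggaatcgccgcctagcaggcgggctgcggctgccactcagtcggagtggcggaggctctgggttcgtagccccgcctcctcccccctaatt
Ephb6: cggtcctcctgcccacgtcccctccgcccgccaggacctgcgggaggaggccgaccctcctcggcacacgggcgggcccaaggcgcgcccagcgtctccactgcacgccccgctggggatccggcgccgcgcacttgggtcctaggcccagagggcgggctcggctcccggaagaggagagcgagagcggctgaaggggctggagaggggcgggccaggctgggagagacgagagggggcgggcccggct
Sema6b: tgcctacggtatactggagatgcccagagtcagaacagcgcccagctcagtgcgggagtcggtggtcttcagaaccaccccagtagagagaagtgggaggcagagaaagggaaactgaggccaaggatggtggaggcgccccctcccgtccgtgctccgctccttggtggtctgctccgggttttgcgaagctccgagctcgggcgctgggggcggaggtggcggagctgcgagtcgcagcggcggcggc
Sema4f: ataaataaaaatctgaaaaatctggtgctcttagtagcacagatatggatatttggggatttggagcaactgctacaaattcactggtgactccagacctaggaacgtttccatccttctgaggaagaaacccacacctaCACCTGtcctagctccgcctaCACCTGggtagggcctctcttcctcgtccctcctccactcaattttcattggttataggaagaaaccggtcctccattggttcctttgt
Robo2: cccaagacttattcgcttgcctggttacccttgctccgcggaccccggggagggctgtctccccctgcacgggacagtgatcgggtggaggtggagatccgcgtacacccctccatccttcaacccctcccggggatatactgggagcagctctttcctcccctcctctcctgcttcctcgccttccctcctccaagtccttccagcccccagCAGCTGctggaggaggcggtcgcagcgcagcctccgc
Marked letters stand at 2 places in Sema4f and at 1 in Robo2 and Sema3d. Sema7a, Plxnb1 and Unc5c, which also fell by 2-fold or more, are not printed because their RefSeq starts lie 837, 636 and 331 bases from the end of their rows; the window of Sema7a holds CAGCTG at 1 place. The 6 windows are too few, and too dependent on this choice, to set rises against falls.

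The same search was run on both strands over the windows of all guidance genes with an entry, 61 of 70. No limit on distance was set here. The starts used for Ephb2, Sema6d and Epha1, all with CAGGTG, lie 120804, 43714 and 7290 bases from the end of their rows. That of Sema4d, with CAGCTG, lies 36961 bases away, and those of Sema4c and Efnb2, with CAGGTG, lie 1873 and 469 bases away. Ephb2 and Epha8, which are 1 row, count as 2 of the 10 windows of genes called higher, and Epha8 holds the only CACGTG among these. CAGGTG stood in 6 of 28 windows of genes called lower in galactose (21.4%), in 2 of 10 windows of genes called higher (20%) and in 17.2% of 32851 RefSeq windows of the same length. CAGCTG stood in 3 of 28 (10.7%), 1 of 10 (10%) and 13% of them. CACGTG, the E-box of Myc and of the glucose sensor MondoA, stood in 0 of 28, 1 of 10 and 6.02%, and TGATGCAA, an ATF4 element of amino acid response genes, in 0 of 28, 0 of 10 and 0.791%. CACGTG and CAGCTG read the same on both strands and were counted once a place. A match of letters is a description and not a measured binding site.

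Class 3 semaphorins, the secreted class that signals through neuropilins and A plexins, held Sema3d, the member with the largest fall on the deposited scale. Of 7 genes, 6 were called lower from high to low glucose and 1 higher (all tested loci, 18.2% and 18.3%), and 4 were called lower and 1 higher from high glucose to galactose (24.8% and 26.5%). Sema3d stood at 2.63 FPKM under high glucose, 0.743 under low glucose and 0.335 under galactose by the authors' deposited table, a 7.85-fold fall from the first to the last. It spans chr5:12383166-12588943 (mm10). Its log2 fold change was -2.97 between high glucose and galactose, made up of -1.82 for the step to low glucose and -1.15 for the step on to galactose. With 1 FPKM added to both values, the change between high glucose and galactose was -1.44, smaller than the -2.26 of Epha1 on that scale. Sema3a, a repellent for axons that satellite cells of regenerating muscle also secrete, was listed at 11.4, 8.11 and 4.18 FPKM by the authors' deposited table, with a log2 fold change of -1.44 to galactose. Sema3e, which can bind plexin D1 without a neuropilin, stood at 12.1, 9.42 and 6.63 FPKM by the authors' deposited table. For these 3 genes the level was highest in high glucose and lowest in galactose, and each of the 3 comparisons was called. Sema3f followed the same order at a low level, 1.04, 0.582 and 0.471 FPKM by the authors' deposited table, but its step from low glucose to galactose was not called (q = 0.0873), and its log2 fold change to galactose went from -1.15 to -0.47 with 1 FPKM added.

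The other class 3 genes did otherwise. Sema3c rose at each step, from 1.21 to 1.75 and 2.37 FPKM by the authors' deposited table, a 1.95-fold rise from high glucose to galactose. Sema3b, whose locus overlaps Lsmem2 in the RefSeq annotation, was lower in low glucose only, with 19.7, 13.7 and 18.5 FPKM by the authors' deposited table, and high glucose and galactose were not called different (q = 0.285). The locus of Sema3g had that same course, 16.8, 10.9 and 15.5 FPKM by the authors' deposited table, but it is a single row with Tnnc1, the slow troponin C gene of the sarcomere. Its value cannot be split between the 2 genes. The troponin genes Tnni1 and Tnnc2, looked at after the values of this row were seen, were lowest in low glucose too, with log2 fold changes of -0.93 and -0.76 from high to low glucose by the authors' deposited table. The part of Tnnc1 in the joint row was not tested.

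The membrane-bound class 6 semaphorins, ligands of A plexins, were called lower than in high glucose for 4 of 4 genes in galactose (24.8% of all tested loci) and for 3 of 4 in low glucose (18.2%). Sema6a went from 2.48 to 0.958 and 0.718 FPKM by the authors' deposited table, 3.46-fold lower in galactose. Sema6b and Sema6c were lower by log2 fold changes of -0.77 and -0.89 in low glucose and of -1.01 and -0.85 in galactose by the authors' deposited table, and neither was called between these 2 media (q = 0.146 and 0.82). Sema6d went the other way in low glucose, with 2.30, 2.76 and 1.55 FPKM by the authors' deposited table, higher in low glucose (q = 0.00317) and lower in galactose than in either glucose medium. Sema7a, the one semaphorin held by a lipid anchor, which signals through plexin C1 and integrins, was listed at 44.6, 36.9 and 16.2 FPKM by the authors' deposited table. Most of its fall thus lay between low glucose and galactose, with log2 fold changes of -0.27 for the step to low glucose and -1.19 for the next.

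Class 4 semaphorins were split. Sema4c, a ligand of plexin B2, stood at 18.4, 11.5 and 10.4 FPKM by the authors' deposited table, and Sema4b at 15.4, 11.7 and 11.8 FPKM. Both were called lower in low glucose and in galactose and not between them (q = 0.102 and 0.94). Sema4f instead rose at each step, with 2.996, 4.06 and 6.15 FPKM by the authors' deposited table, a 2.05-fold rise from high glucose to galactose. Sema4d, the ligand of plexin B1, was below 1 FPKM throughout, at 0.526, 0.321 and 0.345 FPKM by the authors' deposited table, and was called lower in both. Sema4a, also below 1 FPKM, was called higher in galactose, at 0.419 FPKM against 0.238 in high glucose and 0.251 in low glucose (from low glucose, q = 0.00215, the authors' deposited table). Sema5a, a class 5 semaphorin with thrombospondin repeats, was level between the glucose media at 5.00054 and 4.94 FPKM (q = 0.879) and higher in galactose at 8.43 FPKM by the authors' deposited table, a log2 fold change of 0.75 from high glucose.

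Plexins and neuropilins, the receptors of semaphorins, had smaller changes at the median than their ligands. Their median log2 fold change from high glucose to galactose was -0.27, against -0.72 for semaphorins; whether the 2 sets differ was not tested. Plxnb2 stood at 95.04, 82.4 and 75.2 FPKM by the authors' deposited table, called lower in low glucose (q = 0.00571) and in galactose, by 1.26-fold at most. Plxna1, at 37.3, 36.4 and 39.0 FPKM by the authors' deposited table, was called in no comparison (q = 0.704, 0.461 and 0.216). Plxnb1, the receptor of Sema4d, fell 2.10-fold to galactose, with 4.83, 3.20 and 2.30 FPKM by the authors' deposited table. Plxna2 was lower in galactose alone, with 7.12, 6.52 and 4.26 FPKM by the authors' deposited table, and its step from high to low glucose was not called (q = 0.41).

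Plxna3 was called lower in both other media, with 7.33 FPKM under high glucose, 5.70 under low glucose and 6.07 under galactose by the authors' deposited table. Plxnd1, the receptor of Sema3e, was lowest in low glucose (q = 0.00796 against high glucose), with 16.2, 14.1 and 18.04 FPKM by the authors' deposited table. Its rise from high glucose to galactose lay just inside the threshold (q = 0.0458). Nrp1, the co-receptor of Sema3a, was equal in the glucose media at 13.3 and 13.3 FPKM (q = 0.988) and fell to 9.91 FPKM in galactose by the authors' deposited table. Nrp2, the more abundant neuropilin per transcript length, stood at 44.1, 40.1 and 46.2 FPKM by the authors' deposited table and was called only between low glucose and galactose (q = 0.0054). Plxna4, at most 0.390 FPKM, was called higher in both low glucose and galactose, by log2 fold changes of 0.84 and 0.86 by the authors' deposited table.

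Of 8 ephrins, 4 were called higher in low glucose and 1 lower (all tested loci, 18.3% and 18.2%). In galactose 3 were called lower and 1 higher against high glucose, where 24.8% and 26.5% of all tested loci were. Counts among 8 genes are small, and no difference from all loci was tested. Of the B ephrins, which have a cytoplasmic tail and signal in reverse, Efnb1 and Efnb2 were highest in low glucose. Efnb2 stood at 19.7, 22.5 and 10.4 FPKM by the authors' deposited table, higher in low glucose (q = 0.0141) and 2.15-fold lower in galactose than in low glucose. Efnb1 was listed at 21.9, 28.2 and 17.8 FPKM by the authors' deposited table, with log2 fold changes of 0.37 to low glucose and -0.67 from there to galactose. Efnb3 shares its row with Wrap53 and was called in no comparison, at 12.1, 11.8 and 9.86 FPKM (q = 0.897, 0.195 and 0.294 by the authors' deposited table).

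Of the A ephrins, which are held by a lipid anchor, Efna3 was higher in both other media, with 1.88, 2.91 and 3.27 FPKM by the authors' deposited table (q = 0.000659 for low glucose). A second row of Efna3 with the same coordinates was listed there at 0.666, 0.595 and 0.281 FPKM, so that the 2 rows go opposite ways in galactose. Efna1 fell from high glucose (q = 0.00617 to low glucose), with 12.3, 10.3 and 9.01 FPKM by the authors' deposited table; its last step lay just outside the threshold (q = 0.053). Efna5 was higher in low glucose alone, with 3.75, 4.68 and 3.89 FPKM by the authors' deposited table. Efna4 was called in no comparison at 9.81, 8.76 and 8.93 FPKM (lowest q = 0.105 by the authors' deposited table). Efna2 was not called either, at 3.58, 3.55 and 3.25 FPKM by the authors' deposited table. Its row carries a span, chr10:79697305-80369637 (mm10), that 45 rows share, so its values may not be those of Efna2 alone.

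Eph receptors, tyrosine kinases that bind ephrins, were called lower in 6 of 9 tested cases both in low glucose and in galactose (all tested loci, 18.2% and 24.8%), and none was called higher in low glucose. The 2 called higher in galactose, Ephb2 and Epha8, are 1 row with both symbols, listed at 8.53, 9.13 and 10.6 FPKM by the authors' deposited table. Epha4, a receptor that binds both ephrin classes, went from 5.46 to 4.04 and 1.79 FPKM by the authors' deposited table, 3.06-fold lower in galactose than in high glucose. Epha7 fell by much the same factor at a lower level, with 1.17, 0.844 and 0.372 FPKM by the authors' deposited table, 3.16-fold in all, or a log2 fold change of -0.66 with 1 FPKM added. On the deposited scale both had a log2 fold change of -1.18 from low glucose to galactose. Ephb6, which lacks kinase activity, went from 13.7 to 7.99 and 5.41 FPKM by the authors' deposited table. Ephb3 was lowest in low glucose, with 10.9, 5.99 and 7.63 FPKM by the authors' deposited table, and its rise from there to galactose was called (log2 fold change 0.35).

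Epha2, the leading receptor at 124, 135 and 116 FPKM by the authors' deposited table, was called only from low glucose to galactose (log2 fold change -0.22, q = 0.00266). Ephb4, the receptor of ephrin B2, stood at 20.6, 17.1 and 16.6 FPKM by the authors' deposited table, 1.24-fold lower in galactose. Epha1 had the largest fall of the family, from 21.1 to 11.2 and 3.61 FPKM by the authors' deposited table, 5.86-fold in all (q = 0.000659). Its row carries the same span, chr6:42349406-42380558 (mm10), as Zyx, the zyxin gene, which was listed at 608, 555 and 449 FPKM in that table, and strand use in the counting is not given in the sources used here, so reads of the 2 genes cannot be told apart here. Its q-values were also higher than those of other falls of like size: 0.0492, just inside the threshold, for a log2 fold change of -0.91 to low glucose, where Ephb3 with -0.87 had the lowest q of the authors' deposited table.

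**Figure D3:**
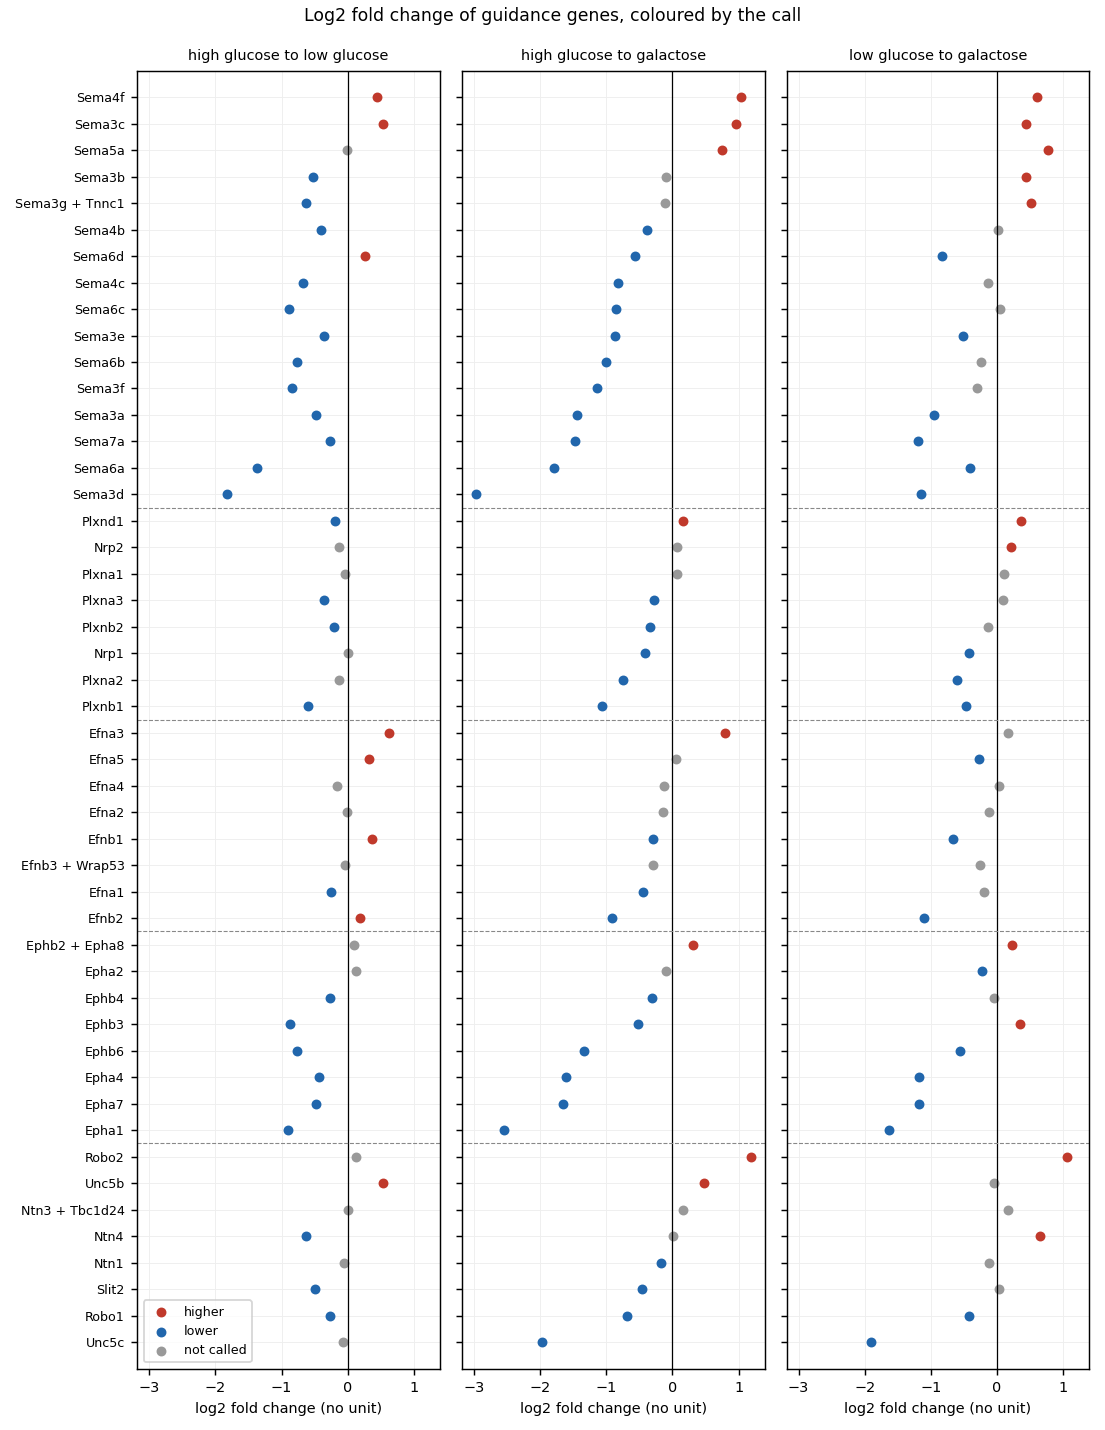
A point marks 1 locus, at its deposited log2 fold change (horizontal axis, unitless), in 1 of 3 comparisons, red where called higher, blue where called lower and grey where not called. Dashed lines part the families, sorted by the change from high glucose to galactose, which runs from -2.97 for Sema3d to 1.19 for Robo2.

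The 2 Robo receptors that were tested went opposite ways in galactose. Robo1 fell at each step, with 7.13, 5.94 and 4.42 FPKM by the authors' deposited table (q = 0.000659 for the first step). Robo2 was level between the glucose media at 2.41 and 2.63 FPKM (q = 0.417) and rose to 5.49 FPKM in galactose by the authors' deposited table, 2.28-fold over high glucose, the largest rise among the tested guidance genes in that comparison. The row of Robo2 carries a span that 2 rows share, so its values may not be those of Robo2 alone. Over the values of the authors' deposited table, Robo1 made up 74.7% of the summed FPKM of the Robo receptors in high glucose, and 69.3% and 44.6% of it in low glucose and galactose. Slit2, their ligand and the one Slit tested, was lower outside high glucose, with 6.32, 4.50 and 4.61 FPKM by the authors' deposited table, and its levels in low glucose and galactose were not called different (q = 0.764).

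The 2 tested Unc5 receptors of netrins, too, went opposite ways in galactose. Unc5b, which with Epha2 and Plxnb2 made up the top 3 guidance genes by FPKM in each medium, rose from 67.1 FPKM to 96.5 in low glucose and 93.1 in galactose by the authors' deposited table. The log2 fold changes were 0.53 and 0.47, and low glucose and galactose were not called different (q = 0.569). Unc5c, near 1 FPKM in both glucose media (1.01 and 0.964 FPKM, q = 0.593), fell to 0.258 FPKM in galactose by the authors' deposited table, 3.92-fold below high glucose, or a log2 fold change of -0.68 with 1 FPKM added. Ntn1, the best known ligand of both, changed little, with 10.2, 9.82 and 9.02 FPKM by the authors' deposited table, called lower only from high glucose to galactose (q = 0.0296). Ntn4, a netrin that also binds laminins, was lower in low glucose alone, with 2.10, 1.36 and 2.12 FPKM by the authors' deposited table. Ntn3 shares its row with Tbc1d24 and was not called, at 3.29, 3.29 and 3.68 FPKM by the authors' deposited table.

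The other 17 symbols were marked as not tested in any comparison, with at most 0.202 FPKM in a group, and Epha5, Epha6, Epha10, Robo4 and Unc5cl were listed at 0 in all 3. Among them were Plxnc1, the receptor of Sema7a, at no more than 0.0191 FPKM, and Plxnb3, Slit1, Slit3, Robo3, Unc5a and Unc5d. Unc5cl and Unc50 match the name pattern and are not netrin receptors. Unc50 was listed at 27.5, 24.1 and 23.1 FPKM by the authors' deposited table and was called lower in low glucose (q = 0.0287) and galactose (q = 0.00197).

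Partners and effectors of these receptors were called in both directions. Of 78 symbols in 4 lists, 77 were found and 65 tested. From high to low glucose 16 were called higher and 12 lower (all tested loci, 18.3% and 18.2%), with a median log2 fold change of 0.05. Against high glucose, galactose had 16 higher and 21 lower (26.5% and 24.8%) and a median of -0.05. Against low glucose it had 13 higher and 21 lower (17.4% and 16%) and a median of -0.03. The share of the 65 called lower in galactose was above that of all tested loci against either glucose medium, as it was for the guidance genes. Fyn, a kinase of the Src family that acts below plexin A and ephrin receptors, had the largest rise named here, from 17.6 to 27.6 and 47.7 FPKM by the authors' deposited table. Sdc4, which encodes the proteoglycan syndecan 4, had the largest fall, from 97.0 to 70.4 and 46.1 FPKM by the authors' deposited table.

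Among genes known to act below semaphorin receptors, Dpysl2, which encodes the tubulin-binding protein CRMP2, fell from 27.4 to 21.4 and 13.9 FPKM by the authors' deposited table, whereas Gsk3b, a kinase that phosphorylates CRMP2, rose from 15.8 to 17.9 and 22.3 FPKM (q = 0.0172 for low glucose). Rnd1, a small GTPase that binds plexins, rose by log2 fold changes of 0.79 in low glucose and 0.94 in galactose by the authors' deposited table. Mical2, an actin-oxidising enzyme, and the kinase gene Pak1 fell in galactose, by log2 fold changes of -0.60 and -0.66 from high glucose by the authors' deposited table. Among genes tied to Eph receptors and ephrins, Ngef, which encodes ephexin, rose from high glucose to galactose by 0.65 on the log2 scale. Rgs3, whose product binds B ephrins, and the exchange factor gene Tiam1 fell there by 0.63 and 0.49 by the authors' deposited table. Tiam1 was called higher in low glucose than in high glucose (q = 0.0265). The row of Arhgap39, a GTPase-activating protein gene of the Robo pathway, rose by 0.59 from high glucose to galactose on that scale in the authors' deposited table, but it also holds Lrrc24, Recql4 and a Rik gene and cannot be split. Flrt2, whose product binds Unc5 receptors, was listed at 10.7, 13.0 and 6.49 FPKM by the authors' deposited table. It was called higher in low glucose, and its log2 fold change from high glucose to galactose was -0.72. Of the remaining receptors of netrins, Neo1, the neogenin gene, stood at 36.9, 48.4 and 50.98 FPKM by the authors' deposited table and was called higher in both other media, while Dcc was listed at no more than 0.000795 FPKM.

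**Figure D4:**
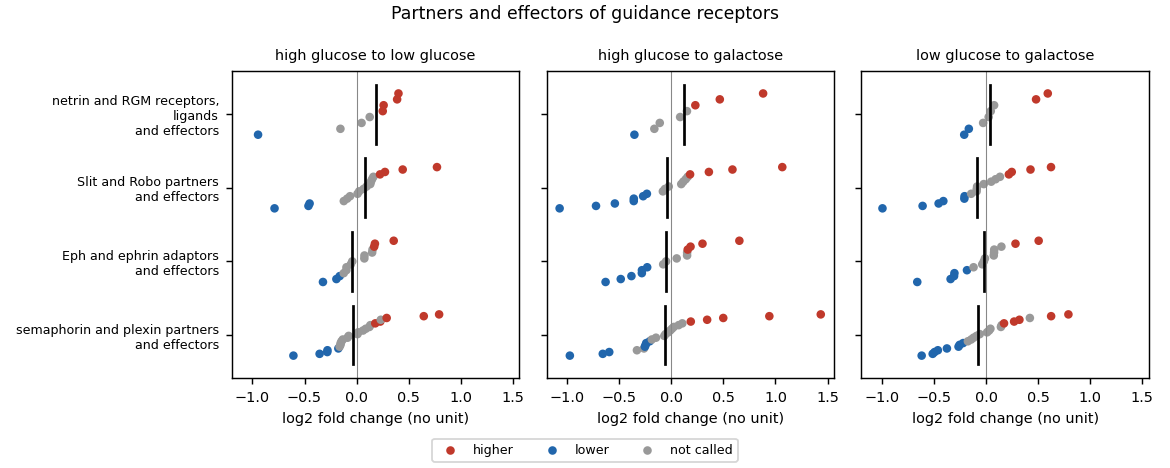
Each point is 1 tested gene of 4 lists of partners and effectors, with its deposited log2 fold change on the horizontal axis (unitless), red where called higher, blue where lower and grey where not called; black bars give list medians. No bar lies farther than 0.19 from 0 in any of the 3 panels, and Fyn is the rightmost point from high glucose to galactose, at 1.43.

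Markers were read to check the label and other cell types. All 6 myoblast markers (Myod1, Myf5, Pax7, Des, Cdh15 and Vcam1) were above 1 FPKM. Of them, 5 of 6 were called lower in low glucose and 6 of 6 in galactose, and their summed level was 762, 499 and 404 FPKM by the authors' deposited table. The part of this shift in the changes of guidance genes was not tested. Endothelial and Schwann cell markers summed to at most 0.211 and 0.329 FPKM in any medium. Of 4 neuronal markers only Tubb3 was above 1 FPKM, and of the immune markers only the row of Cd68, which it shares with the broadly expressed Eif4a1, so that Cd68 itself is not shown to be above it, with Ptprc at no more than 0.00823 FPKM and Emr1 at 0. Pdgfra and the joint row of Ly6a and Ly6c1, 2 of 3 fibro-adipogenic markers, were above 1 FPKM, and the list summed to 85.5, 67.7 and 68.4 FPKM, with 3 of 3 called lower in low glucose and 2 of 3 in galactose by the authors' deposited table. In bulk RNA, fewer cells of a state and less RNA per cell cannot be told apart.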

How the data were processed

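PolyA RNA of 12 C2C12 libraries was sequenced, 4 per medium; groups were taken from the sample titles. The series' design text speaks of single muscle stem cells and of 96 h in culture, whereas the labels name C2C12 cells and 24 h; the latter are given here. TopHat2 2.0.10, Cufflinks 2.2.0, Cuffdiff with no version and the build mm10 are named per the submitters' processing notes; settings, strand use and scaling between libraries are not given in the sources used here. The 1 deposited file is a gene table of 26271 loci. Its group values are the authors' FPKM, 1 pooled value per group, per the file headers. The deposited log2 fold changes, made by the authors' tool, equal the log2 ratio of the group values for all tested members. The deposited test score was not used. P-values and q-values are those of the authors' tool, as deposited. The deposited q-value was checked to be the Benjamini-Hochberg adjustment over all 44006 tests with status OK. No value per library is held, so no test across libraries was run, and depth is unknown.

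Counts, medians, family sums and motif counts were computed with Python 3.11.15, pandas 2.3.3 and numpy 2.4.6, and the adjustment was tested on simulated data with scipy 1.17.1; figures used matplotlib 3.10.9. Start positions were raised by 1. Overlapping genes (protein-coding, without Gm symbols) and promoter windows came from RefSeq tables of GRCm38.p6, the same build as mm10, in which all 70 symbols were found. Strand and start follow RefSeq. Printed fold changes have no pseudocount. Members, gene lists and alternatives were chosen with earlier results of these data known. Members were named with values where called in at least 1 comparison at 1 FPKM or more, and others by family. From the partner lists, the 12 called genes with at least 5 FPKM and the largest change to galactose were named, and Neo1 and Dcc in addition.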

Additional observations from a re-analysis of the deposited data

How the results depend on the processing

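The counts of guidance genes called higher and lower stayed within 1.5 times of those reported at q below 0.01, at 1 FPKM or more in the larger group, with adjustment within each comparison, without rows of several symbols and, as alternatives chosen after seeing the data, without rows of several symbols or overlapping another RefSeq protein-coding gene, and without Unc50 and with Ephb2 and Epha8 counted once. Rows were not left out for sharing their span with another row. Such rows include Ntn4 (a span of 3 rows) and Robo2, Slit2, Nrp2, Sema4c and Plxna4 (spans of 2 rows). A 2-fold minimum left 0 higher and 2 lower from high to low glucose, 2 and 12 from high glucose to galactose, and 1 and 7 from low glucose to galactose, since it removes smaller changes. Medians kept their sign with a pseudocount of 1 FPKM, re-centring on all tested loci, the 1 FPKM limit and without rows of several symbols; the one from low glucose to galactose lay between -0.13 and -0.06. Of 105 called changes of named members, all kept their direction with the pseudocount and with re-centring. With the pseudocount, 20 of them, in 9 genes of low level (Sema3c, Sema3d, Sema3f, Sema6a, Sema6b, Sema6d, Epha7, Ntn4 and Unc5c), shrank by over 1.5 times on the log2 scale. At q below 0.01, 6 of the 105 were not called: Efnb2, Epha1 and Unc50 from high to low glucose, Ntn1 and Plxnd1 from high glucose to galactose, and Epha1 from low glucose to galactose. No paired analysis was possible because the table holds 1 pooled value per group, and for the same reason no library could be left out. Low members such as Sema4a, Sema4d and Plxna4 rest on values below 1 FPKM, whose depth in reads is unknown.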

Other observations

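A further family of guidance genes outside the name rule, the Nogo ligand and its receptor components, was looked at after the values above were seen. Rtn4, which encodes Nogo, rose from 147 FPKM in high glucose to 185 in low glucose and 207 in galactose by the authors' deposited table. Its receptor gene Rtn4r rose at each step, with 0.527, 0.976 and 2.01 FPKM by the authors' deposited table, a log2 fold change of 1.93 from high glucose to galactose. Rtn4r was below 1 FPKM in both glucose media, and its change with 1 FPKM added was not computed. Ngfr, the p75 co-receptor gene, was instead lower in both other media, with 2.35, 1.15 and 1.01 FPKM by the authors' deposited table. Of the 9 genes of this family, 6 were tested from high glucose to galactose, with 4 called higher and 2 lower, where 26.5% and 24.8% of all tested loci were.

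Of the 2 plexin domain-containing genes that are no plexins, Plxdc1 was called higher in galactose, at 0.380 FPKM against 0.163 in high glucose, and Plxdc2 lower, at 0.423 against 0.555 FPKM (q = 0.0443), by the authors' deposited table.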
